A study of Mus musculus with 13 samples.

Results

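The interferon response and immunoproteasome genes described here were 46 listed genes, found by name. All 46 were found among the 24054 genes of the deposited count tables, and each had a count in at least 1 library. Bulk RNA-seq was run on 13 libraries of adult mouse small intestine, with and without loss of Apc, the scaffold of the complex that degrades beta-catenin. Organoids, epithelial cultures that renew themselves from plated crypts, were taken whole and gave 3 groups of 2 libraries with a time point of 10 days. The genotypes were Atoh1CreERT2;Apcfl/fl;Rosa26tdTomato (called Sec-Cre), Lgr5eGFP-CreERT2;Apcfl/fl;Rosa26tdTomato (called ISC-Cre) and a genotype given only as WT. Flow-sorted intestinal stem cells (ISCs) gave the other 3 groups. Sec-Cre ileal ISCs (Atoh1CreERT2;Apcfl/fl;Lgr5DTR-GFP;Rosa26tdTomato) had 2 libraries at 21 days. WT ileal ISCs (Apcfl/fl;Lgr5DTR-GFP;Rosa26tdTomato, without Cre, so WT by title only) also had 2 at 21 days. ISC-Cre duodenal ISCs (Lgr5eGFP-CreERT2;Apcfl/fl;Rosa26tdTomato) had 3 at 14 days. Every group, controls included, received tamoxifen in 2 doses of 1 mg. Atoh1 is the transcription factor of the secretory lineage and Lgr5 the receptor that marks crypt-base stem cells, so each Cre acts only where its promoter does. The Cre and reporter alleles at Lgr5 differ between the ileal and duodenal mice. The labels do not tie replicates to separate mice or cultures. All p-values therefore reflect the scatter of these libraries alone, and that scatter may be technical.

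Interferons are cytokines of antiviral defence. Type I and type III interferons signal through JAK kinases to a complex that contains STAT2 and IRF9 and binds the interferon-stimulated response element, with a core of GAAA, any 2 bases and GAAA. Interferon gamma acts at gamma-activated sites, with a core of TTC, any 3 bases and GAA. The genes they switch on include sensors of viral nucleic acid, effectors that block viral replication, guanylate-binding proteins and immunity-related GTPases that attack the vacuoles of intracellular pathogens, and the machinery of antigen presentation. In the immunoproteasome, the inducible catalytic subunits encoded by Psmb8, Psmb9 and Psmb10 take the places of the constitutive subunits encoded by Psmb5, Psmb6 and Psmb7, which changes the peptides offered on MHC class I. The intestinal epithelium is known to respond strongly to interferon lambda.

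Promoters of members whose levels carry the results below are printed with their matches to these cores, which were searched on both strands in the 250 bases before each RefSeq start on GRCm38.p6. The RefSeq table held 33 of the 46 members, with 38 windows. The response element core was found in 16 of the 38 windows (42.1%), against 974 of all 32817 promoter windows of that length (2.97%). The gamma-activated core, which matches on both strands at once, was found in 9 windows (23.7%), against 7.01% of all windows. In all, 20 of the 33 members held at least 1 of these cores. The windows of the rest held none, among them Psmb9, Psmb10, Tap1, Ddx58, Ifih1, Irf7 and Irf9. Only promoters with a match are printed. The bases up to the start are shown for members of 4 roles, 5′ to 3′ on the gene's strand, with matches in capitals. Irf1 and Irf8 encode interferon regulatory factors, Isg15 a ubiquitin-like modifier, Irgm2 an immunity-related GTPase, Psmb8 an immunoproteasome subunit and B2m the light chain of MHC class I. The first of several RefSeq windows is given for Irf1 and Irf8.
Irf1, chr11:53769789-53770013, plus strand: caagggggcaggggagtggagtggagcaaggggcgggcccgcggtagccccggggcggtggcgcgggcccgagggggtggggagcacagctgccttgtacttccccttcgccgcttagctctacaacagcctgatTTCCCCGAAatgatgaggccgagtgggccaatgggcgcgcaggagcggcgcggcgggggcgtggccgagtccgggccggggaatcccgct
Irf8, chr8:120736133-120736357, plus strand: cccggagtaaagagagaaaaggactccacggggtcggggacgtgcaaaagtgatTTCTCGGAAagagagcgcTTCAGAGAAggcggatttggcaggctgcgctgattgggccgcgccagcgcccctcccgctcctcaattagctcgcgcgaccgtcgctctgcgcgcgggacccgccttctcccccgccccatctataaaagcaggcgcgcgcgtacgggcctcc
Isg15, chr4:156200819-156201043, minus strand: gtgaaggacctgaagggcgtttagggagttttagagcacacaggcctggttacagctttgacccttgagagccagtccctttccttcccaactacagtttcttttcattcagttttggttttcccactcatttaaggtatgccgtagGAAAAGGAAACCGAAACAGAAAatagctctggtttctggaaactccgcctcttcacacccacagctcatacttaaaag
Irgm2, chr11:58214752-58214976, plus strand: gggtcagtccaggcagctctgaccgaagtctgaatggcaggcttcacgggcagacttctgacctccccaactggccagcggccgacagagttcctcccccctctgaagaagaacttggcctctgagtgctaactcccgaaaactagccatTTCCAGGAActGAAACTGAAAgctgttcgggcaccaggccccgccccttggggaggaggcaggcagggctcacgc
Psmb8, chr17:34197970-34198194, plus strand: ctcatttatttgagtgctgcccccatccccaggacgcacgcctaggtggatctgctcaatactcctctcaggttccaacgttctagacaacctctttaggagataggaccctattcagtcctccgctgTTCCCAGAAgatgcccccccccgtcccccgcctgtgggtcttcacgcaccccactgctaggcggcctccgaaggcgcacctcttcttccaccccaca
B2m, chr2:122147462-122147686, plus strand: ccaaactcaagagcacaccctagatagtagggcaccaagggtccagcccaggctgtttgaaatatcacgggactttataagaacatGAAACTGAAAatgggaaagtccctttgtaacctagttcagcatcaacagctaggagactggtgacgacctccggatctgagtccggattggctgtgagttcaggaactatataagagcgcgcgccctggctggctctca
Isg15 held 3 overlapping matches of the response element core, and B2m held 1. Irgm2 held 1 match of each core, 2 bases apart. Irf1 and Psmb8 each held 1 match of the gamma-activated core and Irf8 held 2. A match is a description of letters, and binding was not measured.

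Total gene counts were 13631423 to 22182702 per organoid library and 11524335 to 45516228 per ISC library. Levels are CPM, gene counts divided by library size with TMM scaling over all 13 libraries. Apc was read at 139 to 156 CPM in WT organoids and 185 to 243 CPM in Cre organoids, and these counts cover the whole gene, of which a floxed allele loses only a segment, so they do not check the labels. Axin2, a direct Wnt target, stood at 222 and 393 CPM in WT organoids, at 782 to 822 CPM in Cre organoids, at 285 and 330 CPM in WT ileal ISCs and at 679 to 770 CPM in duodenal ISCs. The libraries labelled Sec-Cre ileal ISC went against their label in Axin2, at 79.0 and 37.8 CPM, and in enterocyte markers. Of these, 7 of 7 were higher than in WT ileal ISCs (20420 and 42120 against 564 and 566 CPM in sum). The 7 stem cell markers summed to 1218 and 2300 CPM against 5418 and 5650 CPM. Axin2, Olfm4 and Slc12a2 were lower in both libraries, but Lgr5, Smoc2, Ascl2 and Cdca7 overlapped with WT ileal ISCs. In these libraries 57.0% and 35.8% of reads were unmapped, and their 9 Paneth cell markers took 19.25% and 1.28% of all gene counts, against 1.85% and 1.61% in WT ileal ISCs. Replicate 1 of them had a TMM factor of 0.352, against 0.876 to 1.25 in the other 12 libraries, so every CPM given for it is 2.84 times its plain CPM without TMM. The 3 duodenal libraries differed from the ileal ones in region, driver, day and dissociation enzyme at once, and 98.5% to 98.9% of their reads lay on 1 strand, against 48.4% to 51.1% in the other 10. The sample labels count the 10 days of the organoids from induction to plating, whereas the design text counts them from plating. The shared extraction protocol names the duodenum alone, so the ileal origin rests on the labels of single samples.

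In the sum over members, organoids of all genotypes sat low and sorted ileal ISCs sat high. Single members could differ, such as Ddx58, with 1615 to 2265 counts in Cre organoids and 451 and 1070 in WT ileal ISCs. Without B2m the summed level was 468 and 527 CPM in WT organoids, 569 and 587 CPM in Sec-Cre and 564 and 714 CPM in ISC-Cre organoids. It was 1726 and 3004 CPM in WT ileal ISCs, 2977 and 3837 CPM in the libraries labelled Sec-Cre ileal ISC and 866 to 1544 CPM in duodenal ISCs. No ileal library fell into the range of the organoids, and the duodenal libraries lay between them. As plain CPM without TMM, Sec-Cre ileal ISC replicate 1 stood at 1049 CPM, above the organoids (494 to 853 CPM) but inside the duodenal range (1039 to 1513 CPM). Transcripts of the interferons themselves were scarce. Of 21 listed interferon genes, 3 had any count in organoids, their sum reached at most 0.197 CPM there, and Ifnb1, Ifnl2 and Ifnl3 were at 0 in all 13 libraries. Ifng was at 0 in every library but duodenal replicate 3, where it stood at 0.0473 CPM, the value of 1 count. Ifnk, an interferon known from keratinocytes, had 6 and 13 counts (1.48 and 0.326 CPM) in the libraries labelled Sec-Cre ileal ISC and at most 5 in any other.

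**Figure D1:**
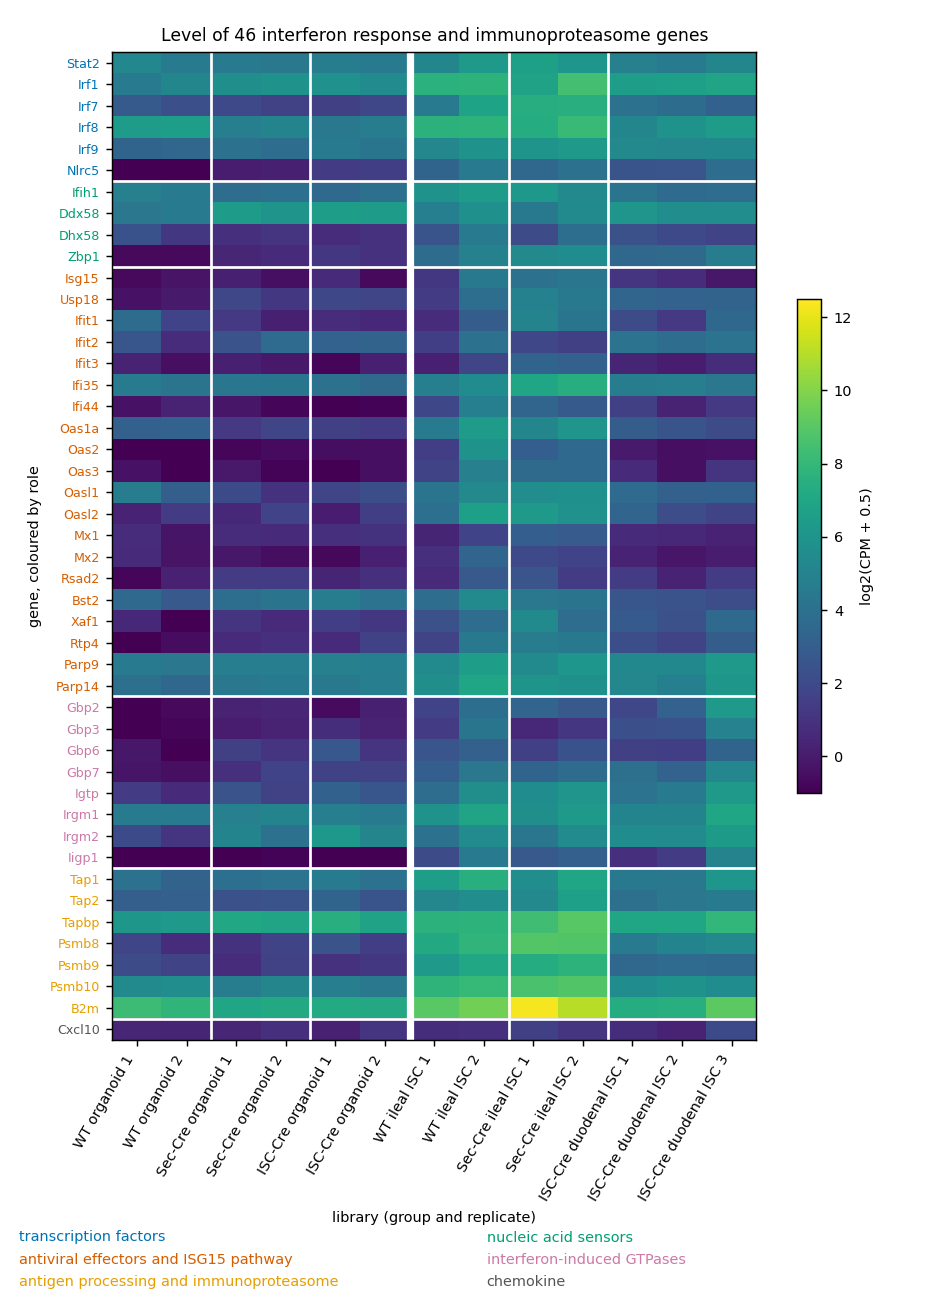
Level of each of the 46 members (vertical axis, coloured by role) in each of the 13 libraries (horizontal axis), as log2(CPM + 0.5), from dark purple (low) to yellow (high). Organoids stand left of the broad white line and sorted ISCs right of it; the immunoproteasome genes Psmb8, Psmb9 and Psmb10 are brightest in the 4 ileal ISC libraries.

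In organoids, the first question was what loss of Apc through either driver did to these genes, compared with WT (n = 2 each). Members moved both ways. In Sec-Cre organoids 9 of 42 tested members rose and 6 fell, against 16.7% and 16.3% of all 14208 genes tested (edgeR, adjusted p under 0.05). In ISC-Cre organoids 15 rose and 7 fell, against 19.3% and 18.5% of all genes. The share of members that rose in Sec-Cre organoids was thus near the background, and the shares that fell did not exceed it with either driver. The median log2 fold change of the tested members was 0.45 in Sec-Cre and 0.76 in ISC-Cre organoids, beside 0.05 and 0.03 over all genes. Ifi44, Oas2, Oas3 and Iigp1 had too few counts in organoids to be tested. Both comparisons use the same WT libraries, so their values are given side by side and are not independent.

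Among the transcription factors, Irf8 fell and Nlrc5 rose. Irf8, an interferon regulatory factor best known from myeloid cells, stood at 89.0 and 89.5 CPM in the WT libraries, 27.1 and 33.8 CPM in Sec-Cre and 20.4 and 25.0 CPM in ISC-Cre organoids. Both WT libraries lay above every Cre library. The log2 fold change was -1.60 ± 0.17 (SE, adjusted p = 0.000591) with the Sec-Cre driver and -2.01 ± 0.17 (adjusted p = 0.000197) with the ISC-Cre driver. Nlrc5, the transactivator of MHC class I genes, had no count in either WT library. Sec-Cre organoids had 0.506 and 0.631 CPM and ISC-Cre organoids 2.04 and 2.38 CPM. Every Cre library had counts. Against WT this was at least 6.99-fold higher with the Sec-Cre driver (adjusted p = 0.0123) and at least 26.9-fold higher with the ISC-Cre driver (adjusted p = 0.00277), each computed against 3 counts over the WT group. Irf1, which mediates part of the response to interferon gamma, rose by 0.85 ± 0.23 on the log2 scale in Sec-Cre organoids (adjusted p = 0.0292), from 23.8 and 36.3 to 51.5 and 60.7 CPM. It was also called higher in ISC-Cre organoids, where 3 of 6 transcription factors rose, against 2 in Sec-Cre organoids. Irf9, the DNA-binding partner of STAT2, rose in ISC-Cre organoids (0.98 ± 0.23, adjusted p = 0.0135) from 9.84 and 10.5 to 22.8 and 18.2 CPM. In Sec-Cre organoids Irf9 lay in the same direction but did not pass. Stat2, from 39.4 and 23.99 CPM in WT to 21.9 and 20.7 CPM in Sec-Cre, did not pass (-0.62 ± 0.25, adjusted p = 0.0933), nor did Irf7, the amplifier of type I interferon production (-0.95 ± 0.42, adjusted p = 0.122).

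The RNA sensors split. Ddx58, which encodes the sensor RIG-I, stood at 19.6 and 22.7 CPM in the WT libraries, 86.2 and 63.7 CPM in Sec-Cre and 90.6 and 85.9 CPM in ISC-Cre organoids. All 4 Cre libraries were far above both WT libraries (log2 fold change 1.77 ± 0.19, adjusted p = 0.000526, and 2.03 ± 0.19, adjusted p = 0.000252). Ifih1, which encodes the related sensor MDA5, went the other way, from 29.1 and 22.3 CPM to 13.8 and 14.6 CPM in Sec-Cre and 11.8 and 15.2 CPM in ISC-Cre organoids. Its log2 fold change was -0.91 ± 0.22 (adjusted p = 0.019) and -0.97 ± 0.22 (adjusted p = 0.0131). Zbp1, a sensor of Z-form nucleic acid, was scarce in WT at 0.133 and 0.141 CPM, reached 0.886 to 1.80 CPM with the Cre drivers, and rose by 2.77 ± 0.74 and 3.46 ± 0.74 on the log2 scale.

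The antiviral effectors were mostly scarce in organoids, and those that changed did so in both directions. Usp18, the protease that removes ISG15 and restrains the type I receptor, stood at 0.281 and 0.489 CPM in the WT libraries, 3.12 and 1.81 CPM in Sec-Cre and 3.32 and 3.00 CPM in ISC-Cre organoids (log2 fold change 2.58 ± 0.60 and 2.95 ± 0.60). Rtp4, an interferon-induced inhibitor of viral replication, rose by 3.43 ± 1.05 and 4.00 ± 1.05. Ifit1, which binds viral RNA caps, fell by 2.68 ± 0.84 and 2.97 ± 0.85 from 12.9 and 2.75 CPM in WT, which differed from each other more than the lower of them did from Sec-Cre replicate 1 at 1.90 CPM. Oasl1, a translational inhibitor of Irf7, fell by 2.74 ± 0.63 and 2.21 ± 0.62. Oas1a, an oligoadenylate synthetase, fell by 1.89 ± 0.40 and 1.95 ± 0.40, but 68.8% of its 31-base words occur in Oas1g, so reads of these genes cannot be told apart with certainty. Parp14, an ADP-ribosyltransferase, rose in ISC-Cre organoids (0.83 ± 0.22, adjusted p = 0.0232). Isg15 stood at 0.141 and 0.311 CPM in the WT libraries, 0.633 and 0.237 CPM in Sec-Cre and 0.999 and 0.143 CPM in ISC-Cre organoids, with overlapping groups (adjusted p = 0.624 and 0.423).

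The interferon-induced GTPases lay higher in Cre organoids wherever they passed the test. Irgm2 stood at 3.59 and 1.51 CPM in the WT libraries, 33.2 and 16.7 CPM in Sec-Cre and 72.4 and 34.6 CPM in ISC-Cre organoids. The lowest Cre library was well above the highest WT library, and the log2 fold change was 3.29 ± 0.57 (adjusted p = 0.00458) and 4.42 ± 0.59 (adjusted p = 0.00125). Gbp7, a guanylate-binding protein, was at 0.352 and 0.222 CPM in the WT libraries, 1.31 and 2.84 CPM in Sec-Cre and 2.52 and 2.71 CPM in ISC-Cre organoids (2.82 ± 0.69 and 3.17 ± 0.69). With the ISC-Cre driver Igtp (2.17 ± 0.54, adjusted p = 0.0171) and Gbp3 rose as well. In all, 5 of 7 tested GTPases rose with that driver and 2 of 7 with the Sec-Cre driver, against 19.3% and 16.7% of all genes, and between the drivers edgeR called 0 of 7 (unadjusted p under 0.05 in 0). Gbp3 had 2 counts over both WT libraries, and its ratio in ISC-Cre organoids was 17.9 (95% counting interval 4.69 to 153). Gbp2, with 3 counts in WT, had a ratio of 9.73 (3.10 to 49.2) in Sec-Cre organoids and did not pass (adjusted p = 0.0772). Exons of Irgm2 and Igtp overlap on the same strand in the annotation, so some of their reads may not have been assigned.

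Genes of antigen processing also went both ways. B2m stood at 305 and 226 CPM in the WT libraries, 125 and 144 CPM in Sec-Cre and 151 and 143 CPM in ISC-Cre organoids, with both WT libraries on top (log2 fold change -1.03 ± 0.17, adjusted p = 0.00381, and -0.88 ± 0.17, adjusted p = 0.00626). Psmb10 was at 42.2 and 49.2 CPM in the WT libraries, 26.0 and 34.4 CPM in Sec-Cre and 26.8 and 21.1 CPM in ISC-Cre organoids. It fell with the ISC-Cre driver (-0.96 ± 0.21, adjusted p = 0.011) and just missed the threshold with the Sec-Cre driver (-0.65 ± 0.21, adjusted p = 0.0516). Tapbp, which encodes tapasin, the chaperone that holds MHC class I for peptide loading, rose by 0.75 ± 0.24 and 0.95 ± 0.24. Psmb8 at 1.11 to 4.96 CPM and Psmb9 at 1.14 to 3.94 CPM were scarce in all 6 libraries and did not pass (adjusted p of 0.148 to 0.985). The chemokine gene Cxcl10, at 0.680 to 1.52 CPM, did not pass either (adjusted p = 0.762 and 0.701).

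**Figure D2:**
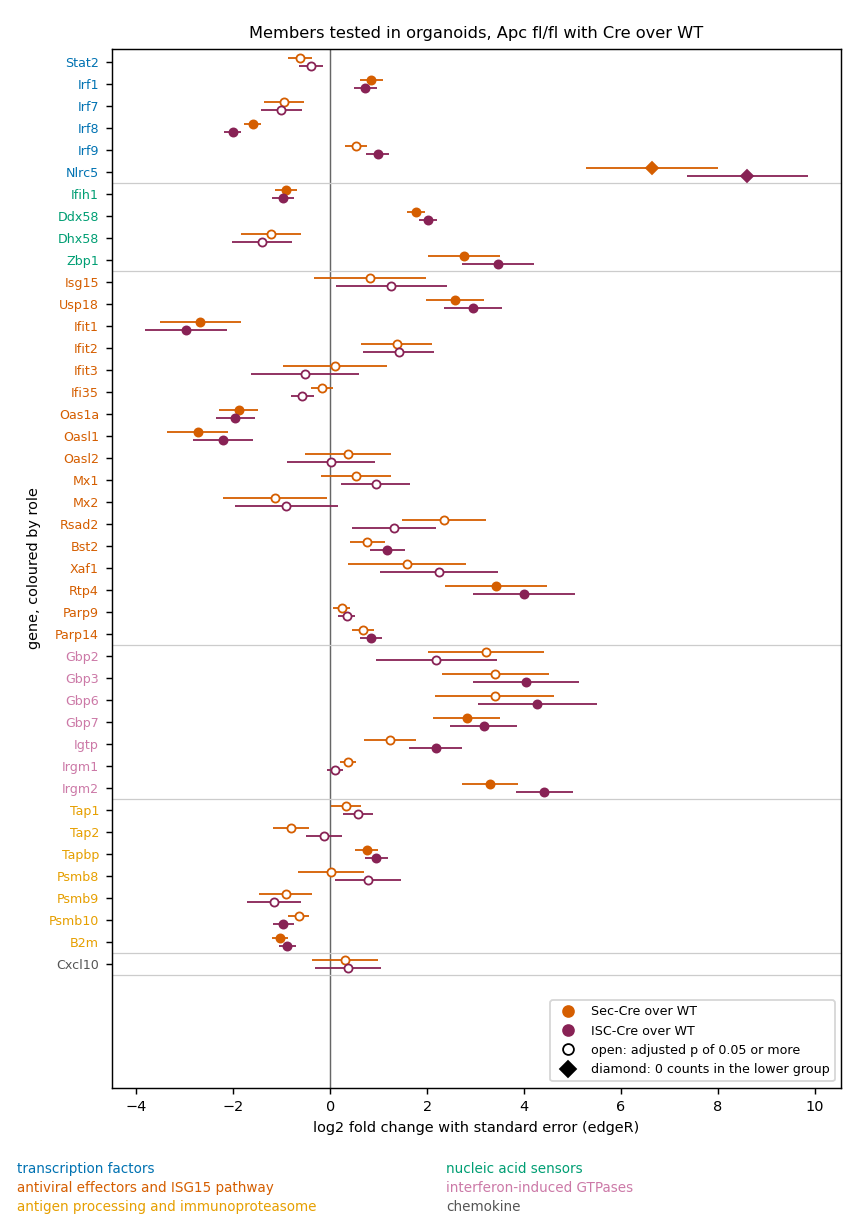
Log2 fold change over WT organoids (horizontal axis, with standard error) of the 42 tested members (vertical axis, coloured by role), for Sec-Cre and ISC-Cre organoids; filled symbols passed an adjusted p of 0.05. Diamonds mark fits against WT libraries without a count. Irf8, Ifih1, Ifit1, Oas1a, Oasl1 and B2m lie left of 0, while Ddx58, Zbp1, Usp18, Rtp4, Gbp7 and Irgm2 lie right of it.

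Calls in organoids leaned on single libraries, since each group had 2. Irf8, Ddx58, Irgm2 and B2m kept their Sec-Cre call when any 1 library was left out. Without Sec-Cre replicate 1, those of Irf1, Ifih1, Zbp1, Usp18, Ifit1, Oas1a, Rtp4 and Tapbp were lost. Without Sec-Cre replicate 2, those of Irf1, Nlrc5, Ifih1, Zbp1, Ifit1, Oasl1, Rtp4, Gbp7 and Tapbp were lost. Without WT replicate 1, those of Irf1, Ifih1, Zbp1, Ifit1, Oasl1, Rtp4 and Tapbp were lost, and without WT replicate 2 those of Zbp1, Gbp7 and Tapbp. With the ISC-Cre driver, Irf8, Nlrc5, Ddx58, Usp18, Gbp7 and Irgm2 kept the call in each case. Without ISC-Cre replicate 1 it was lost for Irf9, Ifih1, Zbp1, Ifit1, Oasl1, Parp14, Gbp3, Igtp and Tapbp. Without ISC-Cre replicate 2 it was lost for Ifit1, Oas1a, Oasl1, Rtp4, Parp14, Gbp3, Psmb10 and B2m. Without WT replicate 1 it was lost for Ifit1, Oasl1, Gbp3 and Tapbp, and without WT replicate 2 for Parp14 and Igtp. Each fit without a Cre library called fewer members, and also fewer genes over all, than the reported fit. In a fit of all 13 libraries the Sec-Cre call was lost for Irf1 (adjusted p = 0.186), Ifih1 (0.0998), Ifit1 (0.122), Rtp4 (0.0638), Tapbp (0.168) and B2m (0.281). The ISC-Cre call was lost there for Ifih1 (0.0652), Ifit1 (0.0787), Parp14 (0.213), Gbp3 (0.0949), Igtp (0.0759), Tapbp (0.082) and B2m (0.336). In the fit of the 2 compared groups alone, Rtp4 (0.0565) and Ifit1 (0.0817) lost the Sec-Cre call.

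The rest of the pathway in organoids was described with gene lists beside the members. Of 6 interferon receptor genes, Ifngr1, a chain of the interferon gamma receptor, fell from 297 and 239 CPM in WT to 85.3 and 93.0 CPM in Sec-Cre and 63.3 and 70.3 CPM in ISC-Cre organoids (-1.64 ± 0.15, adjusted p = 0.000278, and -2.04 ± 0.15, adjusted p = 0.000105). Ifnar1, a chain of the type I receptor, rose by 0.50 ± 0.12 and 0.55 ± 0.12. In all, 1 receptor gene rose and 1 fell with the Sec-Cre driver, and 2 rose and 2 fell with the ISC-Cre driver. Of 13 genes that induce interferon, 3 rose and 2 fell in Sec-Cre, and 4 rose and 3 fell in ISC-Cre organoids. Over all genes 16.7% rose and 16.3% fell in Sec-Cre, and 19.3% rose and 18.5% fell in ISC-Cre organoids. In Sec-Cre organoids both lists stood near these shares, and neither list was tested against them. Tmem173, which encodes the DNA-sensing adaptor STING, rose from 10.6 and 5.42 CPM in WT to 51.0 and 32.7 CPM and to 71.96 and 68.5 CPM (2.35 ± 0.35 and 3.12 ± 0.35), whereas Mavs, the adaptor on which RIG-I and MDA5 converge, fell by 1.31 ± 0.20 and 1.16 ± 0.20.

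Of 29 tested further interferon-induced genes, 9 rose and 2 fell in Sec-Cre, and 11 rose and 2 fell in ISC-Cre organoids. The shares over all genes were 16.7% and 16.3% in Sec-Cre, and 19.3% and 18.5% in ISC-Cre organoids. Ifitm1, an interferon-induced membrane protein also known as a Wnt-responsive gene of intestinal tumours, stood at 0.633 and 0 CPM in the WT libraries, 262 and 152 CPM in Sec-Cre and 285 and 224 CPM in ISC-Cre organoids. Every Cre library was far above WT (9.61 ± 0.68, adjusted p = 0.000105, and 9.93 ± 0.68, adjusted p = 7.78e-05). Ifitm3 rose by 4.31 ± 0.41 and 4.58 ± 0.41, and the guanylate-binding protein genes Gbp4 and Gbp9 rose as well, Gbp9 from 0.141 and 0 CPM to 16.0 and 9.15 CPM and to 26.8 and 14.4 CPM. Lgals9, a galectin, fell from 314 and 281 CPM to 112 to 136 CPM in Cre organoids. Of 11 tested MHC class I heavy chain genes, 1 rose (H2-D1, 0.96 ± 0.25 and 0.82 ± 0.25) with each driver, and 3 fell with the Sec-Cre and 4 with the ISC-Cre driver, H2-Q2 most clearly (-3.39 ± 0.26 and -2.55 ± 0.25). Copies of this family are near-identical, so single heavy chain genes are uncertain.

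Cell type markers moved in the same organoids. All 7 enterocyte markers fell with each driver, from 1760 and 2825 CPM in sum in WT to 44.1 to 65.2 CPM in Cre organoids. Of 7 goblet cell markers 6 fell with each driver, from 4567 and 4893 CPM in sum in WT to 477 to 718 CPM. Of 8 tested Paneth cell markers 5 fell and 1 rose in Sec-Cre, and 3 fell and 1 rose in ISC-Cre organoids. Tuft cell markers went from a sum of at least 92.95 CPM in WT to 19.0 to 52.8 CPM, with 3 of 4 tested lower with each driver and 1 higher with the ISC-Cre driver. In bulk samples, fewer cells of a type and less RNA per cell cannot be told apart. Of 7 stromal markers 6 were tested, 3 were higher and 1 lower with each driver, and the sum went from 13.6 and 15.7 to 276 to 711 CPM, nearly all of it Vim, while Col1a1 was at 0 in WT and at most 1.39 CPM in Cre organoids. Of 4 endothelial markers Cdh5 alone was higher, at 7.30 to 23.1 CPM against 0 in WT. The 5 leukocyte markers summed to at most 1.64 CPM in any organoid library, the 10 T cell markers to at most 3.32 CPM, and Cd3e was at 0 in all 4 Cre libraries. The part of these shifts in the members' changes was not tested.

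Sec-Cre and ISC-Cre organoids were also compared with each other, to see whether the cell of Apc loss mattered. No member was called by edgeR, 2 were at an unadjusted p under 0.05, and DESeq2 called 0 too. Of all 14208 genes, 0.0422% were called. Nlrc5 was lower in Sec-Cre organoids by 1.96 ± 0.66 on the log2 scale (adjusted p = 0.984 in edgeR), and Irf8 was at 0.41 ± 0.17 (adjusted p = 0.984). Both are named because they were the 2 below that unadjusted threshold. The values of the 7 tested GTPases were mostly lower in Sec-Cre organoids, with a median log2 fold change of -0.63, beside -0.22 over all tested members and 0.00 over all genes. With 2 libraries a group, these p-values do not show that both drivers act alike.

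The immunoproteasome was read against the constitutive proteasome by the share of each inducible subunit in the pair that competes for 1 catalytic place, in counts per transcript length. In WT organoids, Psmb8 made up 6.49% and 2.02% of Psmb8 and Psmb5 together, Psmb9 made up 2.59% and 1.37% of its pair with Psmb6, and Psmb10 made up 27.7% and 29.2% of its pair with Psmb7. The organoids of both Cre drivers had Psmb8 shares of 1.66% to 8.19% and Psmb9 shares of 0.607% to 1.31%. Their Psmb10 shares, 14.7% and 16.8% in Sec-Cre and 18.0% and 15.7% in ISC-Cre organoids, all lay below WT. In Sec-Cre organoids Psmb7, the partner of Psmb10, rose (0.44 ± 0.13, adjusted p = 0.0353), as did Psmb5, the partner of Psmb8 (0.75 ± 0.18, adjusted p = 0.0185), and Psmb6 was at 0.04 ± 0.19 (adjusted p = 0.887). Of the 11 other subunits of the 20S core, edgeR called 0 in either organoid comparison (unadjusted p under 0.05 in 1 and 2).

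In sorted ISCs these transcript shares were different, and protein was not measured. In WT ileal ISCs the share was 59.6% and 77.8% for Psmb8, 26.7% and 35.3% for Psmb9 and 58.5% and 60.7% for Psmb10. The libraries labelled Sec-Cre ileal ISC lay close by, at 64.9% and 69.4%, at 21.9% and 27.7% and at 67.6% and 73.5%. In duodenal ISC-Cre ISCs the Psmb8 share was spread over 32.3%, 42.9% and 62.3%, the Psmb9 share was 4.26%, 4.19% and 3.96%, and the Psmb10 share was 25.2%, 27.5% and 23.1%. Their Psmb9 and Psmb10 shares lay below all 4 ileal libraries, and their Psmb10 shares below both WT organoid libraries. For Psmb8 the duodenal range reached into that of the WT ileal libraries. Shares from counts not divided by length were higher, for example 50.5% to 77.9% for Psmb8 in duodenal ISCs.

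**Figure D3:**
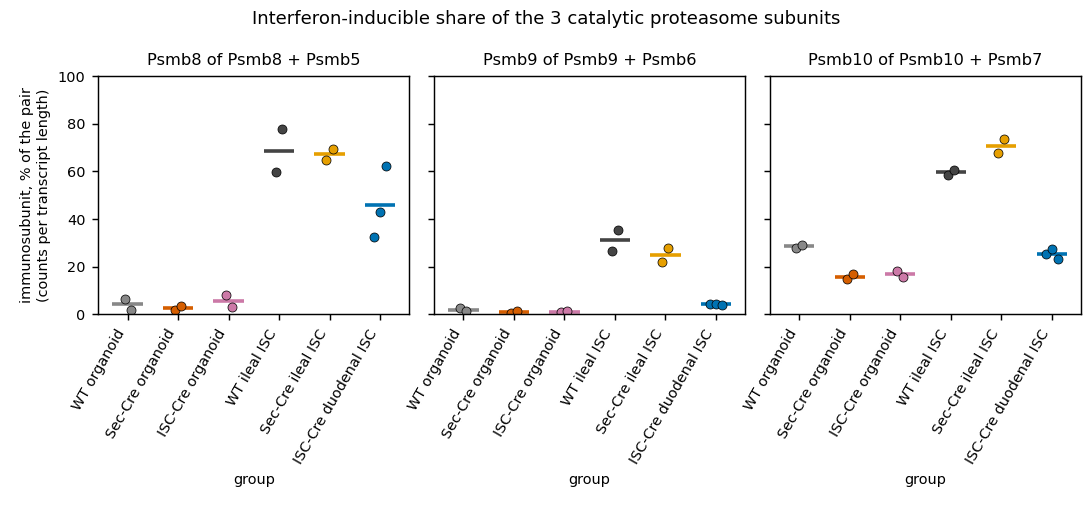
Inducible subunit as a percentage of itself and its constitutive partner (vertical axis, counts per transcript length) in each group (horizontal axis), for Psmb8, Psmb9 and Psmb10; points are libraries and bars are group means. WT and Sec-Cre ileal ISC libraries stand highest in each panel apart from 1 duodenal Psmb8 value of 62.3%, and the Psmb9 share of duodenal ISCs stays between 3.96% and 4.26%.

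WT ileal ISCs were then set against WT organoids (n = 2 each, in the fit of all 13 libraries). Of 46 members 28 were higher in ISCs and 0 lower, against 1.89% and 1.98% of 15208 genes tested (3.87% in either direction), and 45 had a positive log2 fold change. Their median log2 fold change was 2.93, beside 0.00 over all genes. By role, 6 of 7 antigen processing genes were called (median 2.39), 5 of 8 GTPases (5.38), 11 of 20 effectors (2.92), 4 of 6 transcription factors (2.51) and 2 of 4 sensors (1.77). Freshly sorted Lgr5 reporter cells differ from whole organoids in culture, cell sorting, day and cell makeup together, and these cannot be told apart here.

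Psmb8 was at 3.09 and 1.11 CPM in WT organoids and at 148 and 224 CPM in WT ileal ISCs (log2 fold change 6.51 ± 0.58, adjusted p = 0.00015). Psmb9 was at 3.94 and 2.93 CPM against 78.6 and 131 CPM (4.94 ± 0.42, adjusted p = 0.000126), and Psmb10 at 42.2 and 49.2 against 219 and 259 CPM (2.39 ± 0.25, adjusted p = 0.000432). In each case both ISC libraries were far above both organoid libraries, whereas the constitutive Psmb5, Psmb6 and Psmb7 were at 0.73 ± 0.35, 0.35 ± 0.22 and 0.50 ± 0.19 and did not pass. Psme1 and Psme2, which encode the interferon-inducible activator PA28, rose by 1.63 ± 0.26 and 1.96 ± 0.24, and 0 of 11 other 20S subunits passed in edgeR (unadjusted p under 0.05 in 1), at a median log2 fold change of 0.23. B2m, at 226 and 305 CPM against 522 and 776 CPM, was the antigen processing gene that did not pass (1.29 ± 0.56, adjusted p = 0.27). Psmb9, Tap1, Psmb8 and Tap2 lie next to each other on chromosome 17 (34181987 to 34216321, GRCm38), and exons of Psmb9 and Tap1 overlap on opposite strands, so reads from the overlap of these unstranded libraries cannot be told apart.

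Nlrc5, without a count in WT organoids, stood at 9.54 and 24.3 CPM in WT ileal ISCs, at least 216-fold higher (adjusted p = 0.000796). Zbp1 rose by 7.25 ± 0.69, Irf9 by 2.24 ± 0.28, Irf1 by 2.78 ± 0.44 and Irf7 by 3.66 ± 0.60 on the log2 scale. Oas2 was at least 408-fold higher, though its 2 ISC libraries stood far apart at 2.29 and 58.7 CPM. Gbp7 rose by 5.61 ± 0.86, Rtp4 by 6.78 ± 1.18, Parp14 by 2.75 ± 0.47 and Isg15 by 5.60 ± 1.28. Ifih1 rose by 1.48 ± 0.33, from 22.3 and 29.1 CPM to 60.01 and 83.0 CPM. Stat2 (0.84 ± 0.38, adjusted p = 0.301), Gbp2 (adjusted p = 0.0579) and Cxcl10 (0.60 ± 0.84, adjusted p = 0.811) did not pass. Socs1, the feedback inhibitor of JAK kinases, rose by 4.47 ± 0.66, while Ifngr1 was lower in ISCs (-1.24 ± 0.28, adjusted p = 0.0275). Of 40 tested further interferon-induced genes 12 rose and 0 fell, against 1.89% and 1.98% of all genes.

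Irf9, Nlrc5, Zbp1, Gbp7, Psmb8, Psmb9 and Psmb10 kept their call when any 1 of the 4 libraries was left out. Without WT organoid replicate 1 the call was lost for Irf1, Irf7, Oas2, Parp14, Rtp4, Ifih1 and Isg15 (adjusted p of 0.0555 to 0.257), and without WT organoid replicate 2 for Irf7, Parp14, Ifih1 and Isg15 (0.0621 to 0.172). Without WT ileal ISC replicate 2 it was lost for Parp14, Ifih1 and Isg15 (0.0725 to 0.34), and without replicate 1 for Ifih1 (0.0538). Each of these fits called fewer members, and also fewer genes over all, than the reported fit. In a fit of the 4 compared libraries alone, without those that stand apart, 26 members were called, 21 of them among the 28. Over all genes that fit called 1026, against 589 in the fit of all 13 libraries. Of the members named above, Isg15 (adjusted p = 0.0557) and Oas2 (0.0659) lost the call in the fit of 4 libraries. Isg15 also lost it with a replicate block (0.0546). Leukocyte markers moved with this comparison, since their sum over 5 genes was 0.914 and 1.29 CPM in WT organoids and 7.37 and 18.2 CPM in WT ileal ISCs. The 10 T cell markers summed to 0.984 and 1.24 CPM and to 6.94 and 0.962 CPM, with Cd3e, Cd8a and Gzma at 0 in WT ileal ISC replicate 2, where most members were highest. The 7 macrophage and dendritic cell markers summed to 9.99 and 5.998 CPM and to 66.9 and 60.5 CPM, mostly Itgam, and C1qa was at 1.73 and 3.70 CPM in ISCs. The part of leukocyte RNA in these changes was not tested.

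Duodenal ISC-Cre ISCs (n = 3) were compared with WT ileal ISCs (n = 2). No member was higher and 15 of 46 were lower, against 10.2% and 8.84% of 14577 genes tested. The median of the members was -1.03 on the log2 scale, beside 0.07 over all genes. Region, driver, Apc status, day, dissociation and strand all differ between these groups and cannot be told apart. Psmb9 stood at 78.6 and 131 CPM in WT ileal and at 10.97, 12.8 and 11.8 CPM in duodenal ISCs (-3.15 ± 0.30, adjusted p = 0.000601). Psmb8 was at 24.3, 33.4 and 39.9 CPM in duodenal ISCs (-2.52 ± 0.31, adjusted p = 0.00137) and Psmb10 at 46.2, 58.8 and 47.4 CPM (-2.23 ± 0.26, adjusted p = 0.00107). All 3 genes were low in every duodenal library and high in both ileal libraries, while Psmb5, Psmb6 and Psmb7 did not pass (adjusted p = 0.0863, 0.48 and 0.78). Psme2 was also lower (-1.34 ± 0.27, adjusted p = 0.0114), as was Socs1 (-1.61 ± 0.48).

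Beyond the immunoproteasome, 9 of 20 effectors were lower, none of the 8 GTPases, 2 of 6 transcription factors and 1 of 4 sensors. Ifih1 was at 60.01 and 83.0 CPM in WT ileal and at 17.8, 12.8 and 13.7 CPM in duodenal ISCs (-2.27 ± 0.34, adjusted p = 0.00285). Irf8 (-1.78 ± 0.37), Irf7 (-2.43 ± 0.56), Bst2 (-2.53 ± 0.49), Oas1a (-3.33 ± 0.58), Oas2 (-6.48 ± 1.16), Oas3 (-4.17 ± 0.98), Oasl1 (-1.58 ± 0.41) and Oasl2 (-3.28 ± 0.77) were lower, as was Isg15 (-3.44 ± 0.93, adjusted p = 0.0341). Bst2 encodes the tether that holds budding virions, and the Oas genes encode oligoadenylate synthetases. Stat2 (-0.97 ± 0.39), B2m (-1.14 ± 0.61), Gbp2 (1.78 ± 1.24) and Cxcl10 (0.55 ± 0.83) did not pass. Ifitm1 was at 0.0619 and 0 CPM in WT ileal and at 471, 503 and 310 CPM in duodenal ISCs (13.65 ± 1.37, adjusted p = 0.000656), and Ifitm3 rose by 2.86 ± 0.58. In all, 3 of 40 further interferon-induced genes rose and 3 fell, which did not exceed the 10.2% and 8.84% of all genes. Tmem173 rose by 3.01 ± 0.37, from 11.3 and 14.4 CPM to 90.7, 123 and 96.9 CPM.

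Ifih1, Psmb8, Psmb9 and Psmb10 kept the call when any 1 library was left out, whereas the effector calls rested on WT ileal ISC replicate 2. Without it 937 genes and 5 members were called, 4 members lower and 1, Ifit2, higher (2.81 ± 0.68, adjusted p = 0.0497), and Isg15 (adjusted p = 0.683), Irf7 (0.308), Irf8 (0.0883), Oas1a (0.0615), Oas2 (0.0768), Oas3 (0.351), Oasl1 (0.368), Oasl2 (0.302) and Bst2 (0.145) lost the call. Without duodenal replicate 2, 7 members were called, all lower, beside 782 genes higher and 670 lower over all. Irf7, Irf8, Isg15, Oas3, Oasl1 and Oasl2 lost the call there (0.0521 to 0.0973). Irf7, Isg15, Oasl1 and Oasl2 lost it without duodenal replicate 3 (0.0717 to 0.0987), Isg15, Oas3 and Oasl1 without duodenal replicate 1 (0.0508 to 0.0691), and Irf8 without WT ileal ISC replicate 1 (0.065). Fitted without the libraries labelled Sec-Cre ileal ISC, 18 members were called, all lower. Over all genes that fit called 2321 higher and 1785 lower, against 1494 and 1289 in the reported fit. With the counts of the sense strand for the duodenal libraries, no named member changed its call. Ptprc, the pan-leukocyte marker, was at 3.41 and 9.77 CPM in WT ileal and 0.427 to 1.65 CPM in duodenal ISCs, and the 5 leukocyte markers summed to 2.48 to 6.34 CPM there. The 7 macrophage and dendritic cell markers summed to 66.9 and 60.5 CPM in WT ileal and 3.78 to 6.83 CPM in duodenal ISCs, with 1 of 6 tested lower. Of 7 goblet cell markers 5 were lower, from 13900 and 15820 CPM in sum to 715 to 1196 CPM, and of 7 enterocyte markers 3 were higher, from 564 and 566 to 1052 to 2090 CPM. The part of these cell types was not tested.

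The libraries labelled Sec-Cre ileal ISC differed from WT ileal ISCs in few members (n = 2 each). Of 46 members 3 were higher and 0 lower, against 9.62% and 6.96% of all genes, shares that members did not exceed. Ifi35, an interferon-induced leucine zipper protein, stood at 27.9 and 46.7 CPM in WT and at 129 and 172 CPM (log2 fold change 2.01 ± 0.36, adjusted p = 0.00923). B2m stood at 522 and 776 CPM in WT and at 5057 and 2139 CPM (2.47 ± 0.71, adjusted p = 0.0469), and Psmb8 at 148 and 224 against 476 and 455 CPM (1.32 ± 0.34, adjusted p = 0.0342). On this scale both libraries lay above both WT libraries for each gene. As plain CPM without TMM, which was chosen after seeing the data, Psmb8 stood at 168 and 399 against 153 and 238 CPM and Ifi35 at 45.4 and 151 against 28.9 and 49.6 CPM, so that the groups overlapped. B2m stood at 1782 and 1873 against 541 and 823 CPM on that scale, with no overlap. Fitted without TMM, edgeR called no member (adjusted p = 0.192 for Ifi35, 0.139 for B2m and 0.547 for Psmb8), 5 were at an unadjusted p under 0.05, and 299 genes were higher and 1066 lower, against 1403 and 1014 with it. The median log2 fold change moved from 0.00 to -0.71 over all genes and from 0.13 to -0.52 over members. Constitutive subunits were higher as well, Psmb6 by 1.31 ± 0.27 and Psmb5 by 1.49 ± 0.42, with 4 of 11 other 20S subunits. Psmb10 (0.84 ± 0.29, adjusted p = 0.0775), Psmb9 (0.84 ± 0.32, adjusted p = 0.107), Irf7 (adjusted p = 0.169), Stat2 (0.374), Ifih1 (0.553), Isg15 (0.724), Gbp2 (0.982) and Cxcl10 (0.657) did not pass.

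All 3 calls were lost without WT ileal ISC replicate 1 (adjusted p of 0.0936 to 0.228) and without replicate 2 (0.0541 to 0.175). Without Sec-Cre ileal ISC replicate 1 those of Psmb8 (0.0602) and B2m (0.13) were lost. With the compared groups alone those of Psmb8 (0.0639) and B2m (0.0634) were lost, and with DESeq2 size factors in edgeR that of B2m (0.0508). DESeq2, with no library left out, called 8 of 46 members and 3790 of 14577 genes, a share that members did not exceed. The 10 T cell and intraepithelial lymphocyte markers moved with this comparison, with 5 of 8 tested higher and a sum of 52.7 and 77.6 CPM against 6.94 and 0.962 CPM. Gzma was at 18.0 and 24.8 CPM against 0.805 and 0 CPM, and Cd3e at 3.20 and 2.99 CPM against 0.0619 and 0 CPM. Leukocyte markers summed to 10.1 and 37.1 CPM against 7.37 and 18.2 CPM, and macrophage markers to 13.5 and 14.3 CPM against 66.9 and 60.5 CPM. The part of these cells, and of the enterocyte and Paneth cell genes given above, was not tested.

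Between duodenal ISCs and the libraries labelled Sec-Cre ileal ISC, 1 member was higher and 24 were lower, against 21.0% and 19.8% of all genes (40.8% in either direction). Psmb9 (-3.99 ± 0.31), Psmb8 (-3.84 ± 0.32), Psmb10 (-3.07 ± 0.27), Ifi35 (-2.65 ± 0.32), Irf7 (-3.77 ± 0.58), Oasl1 (-2.37 ± 0.41), Ifih1 (-1.93 ± 0.34), B2m (-3.61 ± 0.64), Oas1a (-3.22 ± 0.58), Irf8 (-1.85 ± 0.37) and Oasl2 (-3.53 ± 0.77) were lower and kept the call when any 1 library was left out, as did Isg15 (-4.01 ± 0.94). Tap2 was lower by 1.80 ± 0.39 and lost the call without Sec-Cre ileal ISC replicate 2 (adjusted p = 0.0531), and Stat2 by 1.55 ± 0.39, lost without replicate 1 (0.0668). Ifit2 was the gene that was higher (2.52 ± 0.78), at 13.5 to 17.1 CPM in duodenal ISCs against 3.20 and 2.46 CPM. Its call was lost without any 1 of the 5 libraries (0.0581 to 0.141). Gbp2 (adjusted p = 0.266) and Cxcl10 (0.934) did not pass. Fitted without TMM, 12 members were lower and 2 higher (Ifit2 and Gbp3), and Oasl1 (0.0799), Ifih1 (0.201), Irf8 (0.132), Tap2 (0.175) and Stat2 (0.43) lost the call. That fit called 4112 genes higher and 967 lower, against 3060 and 2890 with TMM, and its median was 0.98 over all genes, against 0.12. Constitutive Psmb5 (-2.52 ± 0.38, adjusted p = 0.00142) and Psmb6 (-1.05 ± 0.24, adjusted p = 0.00948) were lower as well, with 5 of 11 other 20S subunits, whereas Psmb7 did not pass (-0.24 ± 0.23, adjusted p = 0.438). Also lower were 7 of 7 enterocyte, 6 of 9 Paneth cell, 6 of 7 goblet cell and 5 of 8 tested T cell markers, whose part was not tested.

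**Figure D4:**
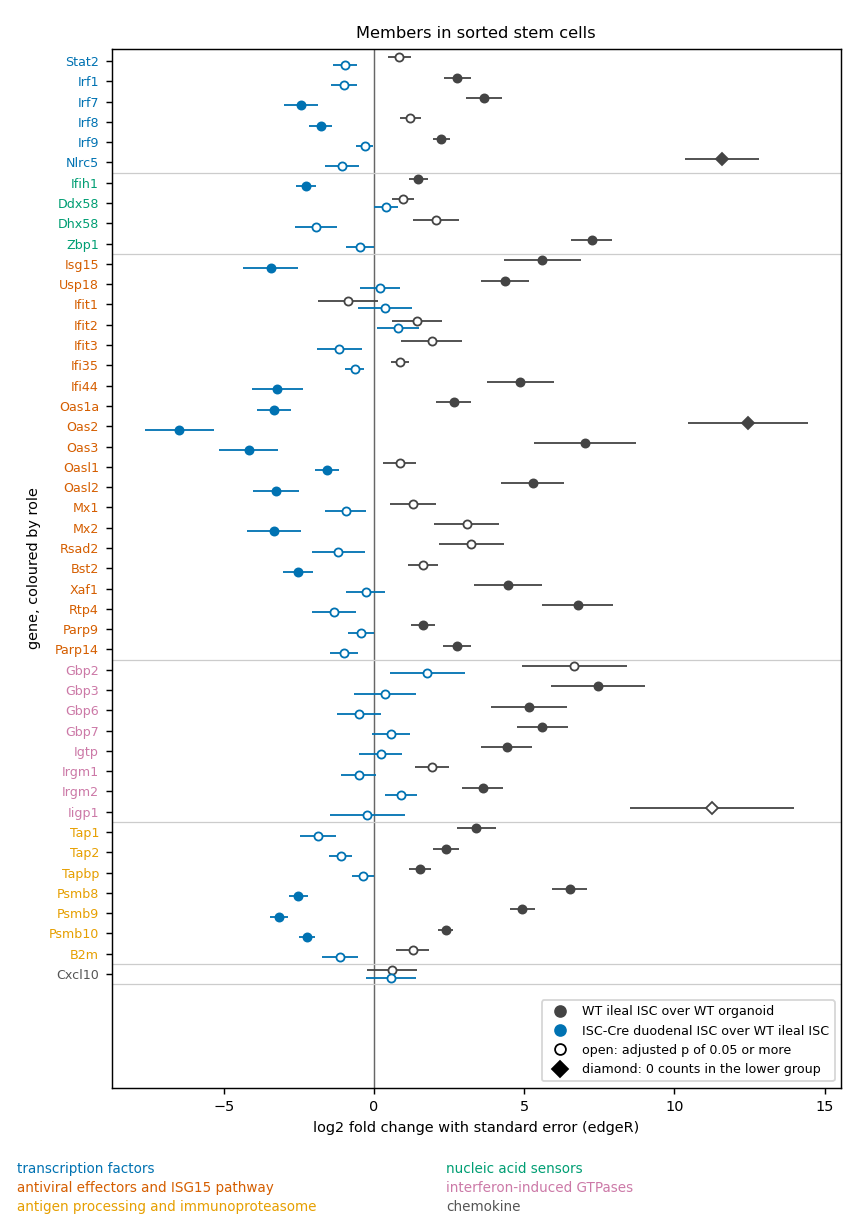
Log2 fold change (horizontal axis, with standard error) of the 46 members (vertical axis, coloured by role) in WT ileal ISCs over WT organoids and in duodenal ISC-Cre ISCs over WT ileal ISCs; filled symbols passed an adjusted p of 0.05, and diamonds mark fits against a group without a count. In the first comparison 45 of 46 points lie right of 0, and in the other Psmb8, Psmb9 and Psmb10 lie between -3.15 and -2.23 while none of the 8 GTPases is filled.

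Members also differed between libraries of a group, which is described here without a test. In WT ileal ISCs, 30 of 46 members were over 2-fold higher in replicate 2 than in replicate 1 (on CPM + 0.5) and 0 were over 2-fold lower, against 3.78% and 4.40% of all genes. The effectors carried this, with 19 of 20 higher and a median log2 ratio of 2.21, and 6 of 8 GTPases were higher. None of the 7 antigen processing genes was, at a median log2 ratio of 0.57. Isg15 stood at 1.80 and 21.6 CPM in the 2 libraries, Oasl2 at 14.9 and 96.7 CPM and Irf7 at 23.9 and 114 CPM. Markers of tuft cells were also higher in replicate 2, at 356 against 51.0 CPM in sum, with Dclk1 at 78.4 against 11.8 CPM. Replicate 1 had 13.9% unmapped reads and replicate 2 had 5.01%. The 5 leukocyte markers summed to 18.2 CPM in replicate 2 and 7.37 CPM in replicate 1. The part of these in the difference was not tested.

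Another set of members stood out in the duodenal group. In replicate 3, 13 of 46 members were over 2-fold higher than in both other replicates and 0 were over 2-fold lower than in both, against 4.36% and 8.07% of all genes. Of the 8 GTPases 7 were among them, with a median log2 ratio of 1.90, but of the 20 effectors 1. Among genes picked after their values were seen, Gbp2 stood at 3.16, 8.82 and 77.9 CPM, Iigp1 at 1.26, 2.01 and 31.96 CPM and Gbp3 at 4.45, 4.79 and 30.8 CPM. B2m, at 166, 179 and 546 CPM, and Cxcl10, at 1.23, 0.793 and 3.55 CPM, were also highest there, as was Cxcl9, a chemokine gene known to be induced by interferon gamma, at 0.581, 1.98 and 34.3 CPM. Psmb9, at 10.97, 12.8 and 11.8 CPM, and Isg15, at 1.61, 1.16 and 0.425 CPM, were not higher. In this library the T cell markers summed to 10.5 CPM against 13.8 and 13.5 CPM in replicates 1 and 2. Much of that sum was Itgae, with 115 counts against 321 and 299. Of the others, Cd3e had 10 counts against 3 and 5, and Cd8a had 13 against 11 and 4. Gzma, with 40 counts against 50 and 71, and Nkg7, with 1 against 2 and 5, had fewer. The 5 leukocyte markers summed to 6.34 CPM against 2.48 and 3.63 CPM, with Ptprc at 1.65 against 0.548 and 0.427 CPM. The 4 endothelial markers summed to 141 against 70.7 and 64.6 CPM, nearly all of it Cdh5, with 2965 counts against 2146 and 2077. Pecam1, with 8 counts against 11 and 18, Plvap, with 18 against 33 and 23, and Kdr, with 0 against 1 and 0, were not higher. Rn45s, the ribosomal RNA precursor, took 5.26% of counts against 0.380% and 0.271%. The part of these in the difference was not tested.

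**Figure D5:**
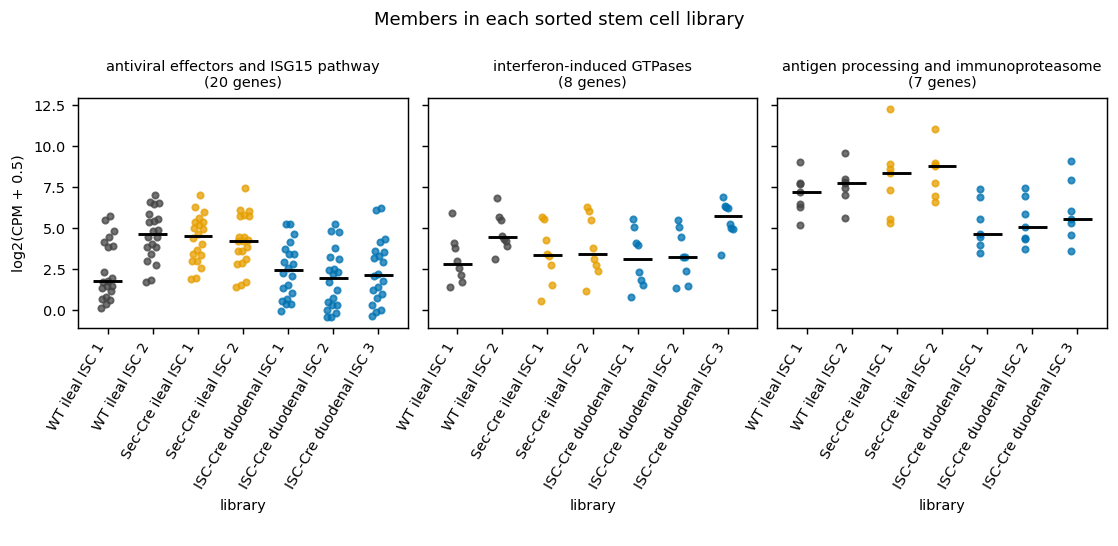
Level of single members as log2(CPM + 0.5) (vertical axis) in each of the 7 sorted ISC libraries (horizontal axis) for 3 roles; points are genes and bars are medians. Effectors stand higher in WT ileal ISC replicate 2 than in replicate 1, and GTPases stand higher in duodenal replicate 3 than in replicates 1 and 2.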

How the data were processed

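Bulk polyA RNA-seq gave 13 libraries. The authors deposited whole-number gene counts per library, in columns for both strands and for each strand. STAR, DESeq2 1.22.2 and the mm10 build are named in the submitters' processing notes, and the gene annotation is not given in the sources used here. The both-strand counts were used, and rows that name no gene stayed out of library sizes. Unmapped reads took 2.58% to 57.0% of a library. Libraries were grouped by their labels. R 4.3.3 and edgeR 4.0.16 (quasi-likelihood test, TMM scaling, filterByExpr with a minimum count of 10) gave log2 fold changes with standard errors and p-values adjusted by Benjamini-Hochberg over all genes of a fit, called at 0.05. Organoids and ISCs were fitted apart, and WT ISCs against WT organoids, with the difference of the Sec-Cre effects, in 1 fit of all libraries. Scripts were tested on simulated data. For each comparison up to 12 called members per direction by adjusted p were named, plus 10 anchor genes, and up to 4 called genes per direction from each other list. Counting intervals are at 95%, and intervals and bounds cover counting error only. The members and lists were chosen with earlier results of these data known. Alternatives were DESeq2 1.42.0, its size factors, no count filter, a replicate block, other sets of libraries, sense-strand counts, leaving out each library and, chosen after seeing the data, library sizes without TMM. The GENCODE vM21 gene models gave lengths, overlaps and shared 31-base words. Results for 1 listed signalling gene are not reported here.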

Additional observations from a re-analysis of the deposited data

Results flagged for a closer look

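The Sec-Cre effect was compared between ileal ISCs and organoids by an interaction term in the edgeR fit of all 13 libraries. Of 46 members, 7 had a more positive and 5 a more negative effect in ISCs, against 26.4% of all genes tested in either direction, a share near which the members stood. The split between directions turned with single libraries. It was 4 more positive and 9 more negative without WT ileal ISC replicate 1, 9 and 1 without WT ileal ISC replicate 2, and 6 and 1 without WT organoid replicate 2. Fitted without TMM, chosen after seeing the data, it was 2 and 8, and the median difference over all genes moved from -0.16 to -1.001 on the log2 scale. Material, day and sorting differ between these effects. The libraries labelled Sec-Cre ileal ISC also went against their label in Axin2 and enterocyte markers, so these cannot be told apart.

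Among genes of antigen processing the difference, ISCs minus organoids on the log2 scale, was 3.45 ± 0.80 (SE) for B2m (adjusted p = 0.0078), 1.44 ± 0.34 for Psmb10 (adjusted p = 0.00841) and 1.70 ± 0.52 for Psmb9 (adjusted p = 0.0307). For effectors it was 2.13 ± 0.43 for Ifi35 (adjusted p = 0.00364), 3.48 ± 0.82 for Oasl1 (adjusted p = 0.00854) and 5.16 ± 1.48 for Ifit1 (adjusted p = 0.0229). For the transcription factors it was 1.63 ± 0.50 for Irf8 (adjusted p = 0.0299) and -7.02 ± 1.68 for Nlrc5 (adjusted p = 0.0108), the latter resting on WT organoids without a count. The sensor gene Ddx58 was at -2.14 ± 0.52 (adjusted p = 0.01). The GTPase genes Irgm2, Gbp3 and Gbp7 were at -3.24 ± 0.89 (adjusted p = 0.0188), -6.28 ± 1.94 (adjusted p = 0.0323) and -3.15 ± 1.06 (adjusted p = 0.045).

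Ifi35, Oasl1 and B2m kept this call when any 1 library was left out. Without TMM, Ifi35 (adjusted p = 0.211), Psmb10 (0.534), Oasl1 (0.0646), Irf8 (0.406) and Psmb9 (0.438) lost it. Psmb10 lost it without Sec-Cre organoid replicate 1 (adjusted p = 0.0589), Nlrc5 without WT organoid replicate 2 (0.0516) and Ddx58 without WT ileal ISC replicate 2 (0.0521). Irf8, Ifit1, Gbp3, Gbp7, Irgm2 and Psmb9 each lost it without any of 3 or more libraries. Leaving those out 1 at a time gave adjusted p of 0.0588 to 0.115 for Irf8, 0.0703 to 0.113 for Ifit1, 0.0545 to 0.143 for Gbp3, 0.0633 to 0.161 for Gbp7, 0.0516 to 0.0883 for Irgm2 and 0.0557 to 0.128 for Psmb9.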

How the results depend on the processing

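With 2 or 3 libraries a group, single libraries carried much of the result. Leaving out 1 library at a time gave 6 to 16 called members (2608 to 5101 genes) for Sec-Cre against WT organoids, 10 to 22 (3194 to 5542) for ISC-Cre against WT organoids, 0 (0 to 5) between these, 0 to 3 (153 to 3183) for Sec-Cre against WT ileal ISCs, 5 to 14 (937 to 2226) for duodenal against WT ileal ISCs, 8 to 25 (162 to 355) for WT ISCs against WT organoids and 7 to 13 (2513 to 4888) for the difference of Sec-Cre effects. Of 674 values of named genes, 504 kept direction and call, 137 lost the call, 4 gained it and 29 turned direction. DESeq2 size factors in edgeR kept 139 of 141, testing every gene with a count 138 of 141, and sense-strand counts all 34. The fit of all 13 libraries lost the call for 13 of 104 such values, the replicate block lost it for 11 and turned 4 of 141, and the compared groups alone lost it for 8 of 138.

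In 1 fit of all 13 libraries the Sec-Cre and ISC-Cre organoid comparisons called 9 and 13 members (2477 and 2997 genes), the comparison between them 1 gene, Sec-Cre against WT ileal ISCs 4291 genes and duodenal against WT ileal ISCs 4426 genes. DESeq2 called 72 genes between Cre organoids, 8 members and 3790 genes for Sec-Cre against WT ileal ISCs and 1194 genes for WT ISCs against WT organoids. With every gene tested, 24 genes differed between Cre organoids. With the compared groups alone these counts were 11 genes, 1 member and 1336 genes, and 1026 genes. Without TMM, an alternative chosen after seeing the data, 0 members and 1365 genes were called for Sec-Cre against WT ileal ISCs and 14 members for duodenal against Sec-Cre ileal ISCs, and of 47 values of named genes 13 lost the call and 6 turned. The turned values were -0.31 for Stat2, -0.15 for Isg15 and -0.20 for Cxcl10 in Sec-Cre against WT ileal ISCs, 0.80 for Cxcl10 in duodenal against Sec-Cre ileal ISCs, and -0.56 for Ifih1 and -0.67 for Cxcl10 in the difference of Sec-Cre effects. The cause was not tested.

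Same-numbered libraries deviated together with correlations of only -0.072 to 0.056, and the reported fits did not pair them. In a group of 2 libraries the deviations mirror each other, so these values cannot show whether mice or batches were shared. With the replicate block, duodenal against WT ileal ISCs gave 8 members and 1671 genes, and the log2 fold change turned to 0.33 for Gbp2 in Sec-Cre against WT ileal ISCs, to -0.39 for Gbp2 and -0.34 for Cxcl10 in duodenal against WT ileal ISCs and to -0.72 for Gbp2 in duodenal against Sec-Cre ileal ISCs.

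No value that turned direction had passed the threshold. Ranges of log2 fold changes over libraries left out that crossed 0 were, for Sec-Cre against WT organoids, -0.0214 to 1.53 (Isg15), -0.56 to 0.93 (Psmb8) and -0.0049 to 0.57 (Cxcl10). For ISC-Cre against WT organoids they were -0.71 to 0.018 (Stat2), -0.73 to 2.06 (Isg15) and -0.28 to 0.84 (Cxcl10). Between Cre organoids they were -0.17 to 0.24 (Irf7), -0.089 to 0.23 (Ifih1), -1.29 to 1.57 (Isg15), -0.49 to 0.71 (Psmb9) and -0.52 to 0.59 (Cxcl10). For Sec-Cre against WT ileal ISCs they were -0.84 to 0.016 (Ifih1), -0.31 to 3.28 (Isg15) and -0.83 to 1.54 (Gbp2). Duodenal ISCs had -0.51 to 3.42 (Gbp2) and -0.29 to 0.92 (Cxcl10) against WT, and -0.43 to 2.40 (Gbp2) and -0.95 to 0.26 (Cxcl10) against Sec-Cre ileal ISCs. The difference of Sec-Cre effects had -1.17 to 2.40 (Isg15) and -0.0011 to 0.70 (Cxcl10).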
